A study of Mus musculus with 8 samples.

Results

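The genes of oxidative phosphorylation were examined in 8 RNA-seq libraries of cortical-type progenitor cultures made from a mouse embryonic stem cell line, 4 with the transcriptional repressor Bcl6 induced and 4 controls. The genes were chosen by symbol alone: Ndufa, Ndufb, Ndufc, Ndufs and Ndufv genes for complex I, the Sdh genes for complex II, Uqcr genes for complex III, Cox4 to Cox8 genes for complex IV, Atp5 genes for the ATP synthase (complex V), and the genes of mitochondrial DNA whose symbols begin with mt-Nd, mt-Co, mt-Cytb or mt-Atp. This took 98 of the 14954 genes in the deposited table. Of these, 88 are encoded in the nucleus, on 19 chromosomes with at most 8 on any of them, and 10 are encoded in mitochondrial DNA. By their known roles, 76 of the 88 are subunits of the complexes, 9 are assembly factors and 3 are other proteins. Subunits with other symbols were not taken, so the counts by complex below cover only the genes that matched. Mitochondrial DNA of the mouse has 13 protein-coding genes in the annotation used, of which mt-Atp8, mt-Nd3 and mt-Nd4l were not analysed here.

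The induced group received 1 µg/ml doxycycline for 24 h and the control group DMSO, both at day 12 of differentiation, and each group has 4 libraries numbered by differentiation. All 8 cultures came from the A2 lox.Cre Bcl6 line, which carries a tetracycline-inducible Bcl6 and was kept on irradiated mouse embryonic fibroblasts before differentiation, and all were differentiated in DDM medium, supplemented for part of the time with 400 ng/ml of the hedgehog pathway inhibitor cyclopamine. Cells lacking the transgene were not given doxycycline in these samples, and an effect of the drug cannot be told apart from one of Bcl6. The labels give 1 line, and nothing beyond the differentiation number says how separate the cultures were, and p-values therefore take in only the variation among the 8 libraries, which may be technical.

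Oxidative phosphorylation passes electrons from NADH and succinate along complexes I to IV of the inner mitochondrial membrane to oxygen, pumps protons on the way, and lets them return through complex V to make ATP. The machinery is built from 2 genomes. Most subunits are encoded in the nucleus and imported, while a few core subunits of complexes I, III, IV and V are transcribed and translated inside the organelle. Complex II has nuclear-encoded subunits only. Neural progenitors are known to lean on glycolysis, and oxidative phosphorylation to gain in weight as neurons form.

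The libraries held 10.33 to 15.02 M (1e6) reads in the induced group and 9.42 to 9.74 M in the control group. Bcl6 (chr16:23965052-23988852, minus strand, mm10) stood at 393, 422, 427 and 325 CPM (a gene's share of its library, scaled to 1e6) across induced libraries 1 to 4, against 6.61, 6.01, 7.12 and 6.21 CPM in controls 1 to 4. All induced libraries were far above all controls, with a log2 fold change of 5.90 ± 0.10 (SE, limma adjusted p = 6.8e-11), though reads of the inducible copy and of the chromosomal gene are counted together. Over the whole table limma called 1019 genes changed (6.81%, adjusted p under 0.05 after Benjamini-Hochberg adjustment), 681 higher and 338 lower, or 536 and 424 under median-of-ratios scaling and 501 and 474 under upper quartile scaling. Cell type markers moved with the induction: of 6 each, 3 neuronal ones rose (Tubb3, Dcx and Map2), 4 progenitor ones fell (Hes5, Fabp7, Sox1 and Nes; 1 without control 3), and 3 pluripotency genes rose (Nanog, Zfp42 and Esrrb) while Tdgf1 fell. The 6 pluripotency markers summed to 1738.5 to 2041 CPM in induced libraries and 1874 to 2088 CPM in controls. The 6 progenitor markers summed to 457 to 619 CPM in induced libraries and 724 to 877 CPM in controls. For the 6 neuronal markers the sums were 1045 to 1239 CPM and 651 to 778 CPM. None of 6 fibroblast markers was called (1 without control 3). Their summed level was 529 to 643 CPM in induced libraries and 480.4 to 625 CPM in controls. Of 6 heart and skeletal muscle markers, the 4 in the table summed to 14.3 to 21.7 CPM in induced libraries and 9.93 to 19.2 CPM in controls. The part of these markers in the values below was not tested.

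None of the 98 oxidative phosphorylation genes was called higher or lower in the induced cultures, against 6.81% of all genes, of which 4.55% were called higher and 2.26% lower. By limma's unadjusted p, 8 of them lay under 0.05, all nuclear-encoded and lower in induced cultures, which is 8.16% of the 98 beside 23.7% of all genes. In 5 of the 98 the induced and control libraries did not overlap, beside 16.9% of all genes. In bulk RNA, fewer cells of a type and less RNA per cell cannot be told apart, here and below.

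The fit bounded most nuclear-encoded members closely. For 84 of the 88, the 95% confidence interval of the fold change, unadjusted for the number of genes, lay wholly within 1.5-fold either way, compared with 63.9% of all genes, and all 88 lay within 2-fold. The 4 with wider intervals were the assembly factor Ndufaf6, the complex I subunit Ndufb2, Ndufa4l2 and the muscle isoform Cox7a1, at mean levels of 4.62 to 20.7 CPM. Without control 1 the number within 1.5-fold was 85, and without control 3 it was 76. For the 10 mitochondrially encoded genes, 5 intervals lay within 1.5-fold and 9 within 2-fold, the exception being mt-Co2. Within 1.5-fold there were 2 of these 10 without control 1 and 7 without control 3.

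The fold changes of the nuclear-encoded genes leaned to one side, and the lean rested on 1 control. Of the 88, 80 had a log2 fold change below 0, with a median of -0.12 beside 0.03 over all genes. Without control 1, 42 of the 88 were below 0 and the median was 0.0050. Without control 3, 82 were below 0 and the median was -0.17. No nuclear-encoded member was called in any of these fits, beside 11.3% of all genes called without control 1 and 5.80% without control 3.

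**Figure D1:**
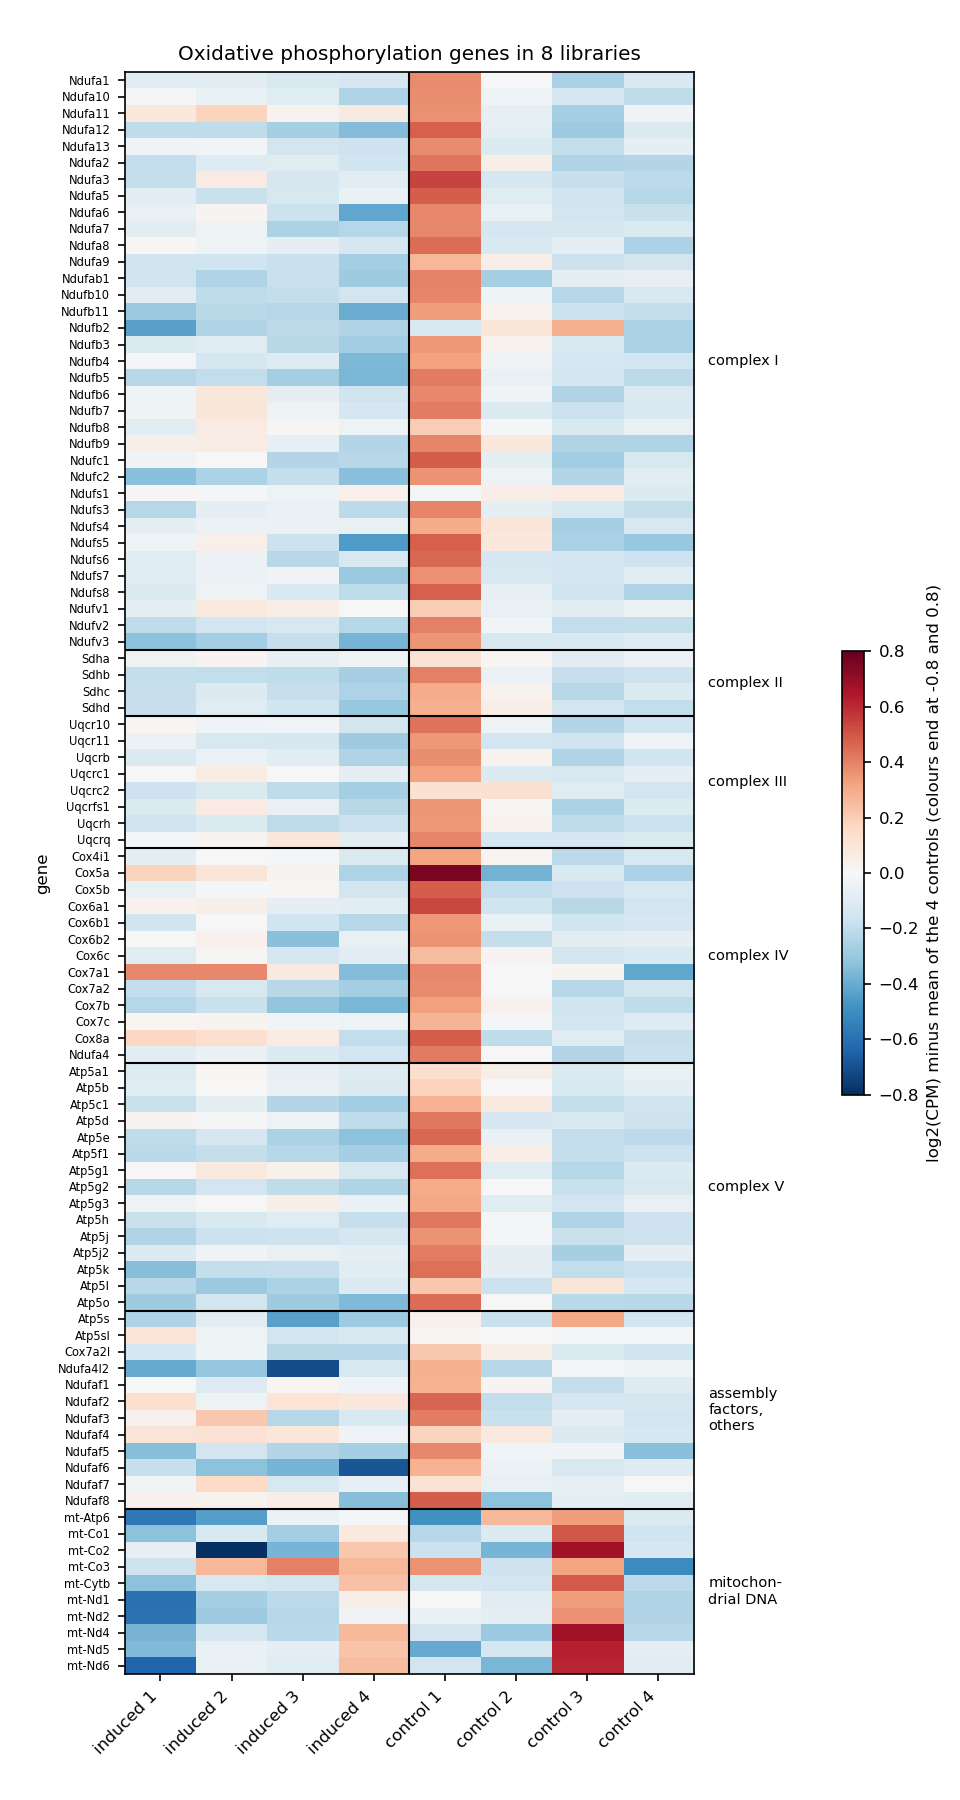
Each row is 1 of 97 of the 98 genes, grouped by complex, and each column 1 library, induced libraries on the left and controls on the right. Colour gives log2 CPM minus the mean of the 4 controls, and a reader should see the column of control 1 highest for 80 of the 87 nuclear-encoded genes drawn and the column of control 3 highest for 9 of 10 mitochondrially encoded genes.

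Summed over the 88 nuclear-encoded genes, induced libraries 1 to 4 held 10097, 10575, 10083 and 9670 CPM, against 13351, 10780, 9786 and 9990 CPM in controls 1 to 4. Control 1 alone stood apart, and the other 3 controls covered the same range as the induced libraries. The means were 10106 ± 370.2 CPM in induced libraries and 10977 ± 1640 CPM in controls (SD, n = 4 each), and 10186 ± 525 CPM in the 3 controls without control 1. Control 1 was the highest of the 8 libraries in 81 of the 88 genes, beside 27.9% of all genes.

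Summed over the 10 mitochondrially encoded genes, induced libraries 1 to 4 held 5880.3, 7001, 6732 and 8465 CPM, against 6861, 7089, 10942 and 6875 CPM in controls 1 to 4. Here control 3 stood apart and control 1 did not, and the induced libraries lay on both sides of the other 3 controls. The means were 7019 ± 1075 CPM in induced libraries and 7942 ± 2003 CPM in controls (SD, n = 4 each), and 6942 ± 128 CPM in the 3 controls without control 3. Control 3 was the highest of the 8 libraries in 9 of these 10 genes, beside 16.4% of all genes. Among the controls, the library highest in the nuclear sum was not the one highest in the mitochondrial sum. The mitochondrial sum divided by the nuclear sum gave 0.582, 0.662, 0.668 and 0.875 for induced libraries 1 to 4, and 0.514, 0.658, 1.12 and 0.688 for controls 1 to 4. The groups overlapped in this ratio, which had its lowest and its highest value in control libraries.

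**Figure D2:**
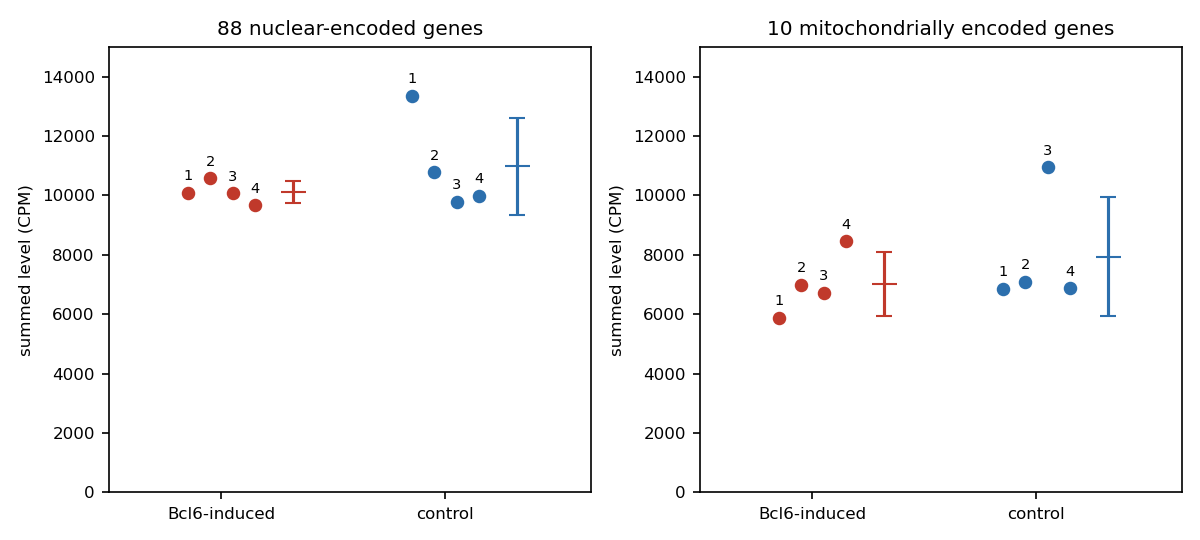
Summed level in CPM of the 88 nuclear-encoded genes (left panel) and the 10 mitochondrially encoded genes (right panel), with 1 numbered point per library and a bar for mean ± SD (n = 4). Control 1 lies above all other libraries at 13351 CPM in the left panel, and control 3 at 10942 CPM in the right panel.

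Complex I, which takes electrons from NADH, had 36 nuclear-encoded subunits in the table, and their median log2 fold change was -0.12 (0.0054 without control 1). The 7 nuclear core subunits, which carry the flavin and the iron-sulphur clusters, had a median of -0.12, and the 29 supernumerary subunits -0.14. Ndufs1, the largest core subunit, had 146, 144, 141 and 149 CPM in induced libraries, against 144, 151, 152 and 135 CPM in controls. It was flat in all 8 libraries, control 1 included, and its 95% interval ran from -0.14 to 0.14.

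Of the nuclear subunits of complex I, Ndufv3 and Ndufb11 came nearest to a call. Ndufv3 (chr17:31520115-31531331, plus strand), a supernumerary subunit of the NADH-oxidising module, had 77.9, 80.9, 86.0 and 75.5 CPM in induced libraries, against 125, 89.3, 89.8 and 91.0 CPM in controls. The groups did not overlap, and the 3 controls other than control 1 lay just above the highest induced library. Its log2 fold change was -0.29 (95% interval -0.53 to -0.05, limma adjusted p = 0.14), and without control 1 it was -0.17. Ndufb11 (chrX:20615326-20617619, minus strand), a membrane arm subunit, had 90.9, 96.3, 95.2 and 84.9 CPM in induced libraries, against 141, 114, 99.2 and 97.8 CPM in controls. These groups did not overlap either, and the log2 fold change was -0.28 (95% interval -0.53 to -0.04, limma adjusted p = 0.15), or -0.17 without control 1. Both genes were singled out after their values were seen. Ndufb2, another membrane arm subunit, stood at only 3.81, 4.36, 4.46 and 4.36 CPM in induced libraries, against 4.71, 5.51, 6.27 and 4.31 CPM in controls. Per kilobase of annotated exon its mean over all libraries was 0.839 CPM, beside a median of 38.6 CPM over the 36 subunits. That value depends on the length used. Ndufb2 has 5628 exon bases and a transcript of 4371 bases, beside a median of 1643.5 exon bases over the 36 subunits. Exons of other genes on the same strand overlap 145 of its exon bases.

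The assembly factors of complex I that the symbols took in were Ndufaf1 to Ndufaf8 and Atp5sl, which are needed to build the complex and are not part of it. Their median log2 fold change was -0.03. Ndufaf6 (chr4:11051045-11076205, minus strand) had 20.5, 18.6, 18.1 and 14.5 CPM in induced libraries, against 28.4, 22.6, 21.4 and 21.8 CPM in controls. Its groups did not overlap, and its adjusted p was the lowest of the 98 genes, at 0.10 by limma (log2 fold change -0.39, 95% interval -0.68 to -0.10). It was singled out after its values were seen. The other 8 had log2 fold changes of -0.24 to 0.07.

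Complex II, succinate dehydrogenase, joins the citric acid cycle to the chain, and all 4 of its genes were measured. Sdha, the flavoprotein, had 274, 286, 269 and 276 CPM in induced libraries, against 305, 285, 265 and 272 CPM in controls. The groups overlapped, with a log2 fold change of -0.03 (95% interval -0.17 to 0.12). Sdhb, the iron-sulphur subunit, had 130.2, 129.7, 129 and 124 CPM in induced libraries, against 196, 144, 130.5 and 133 CPM in controls. The lowest control lay just above the highest induced library, and limma gave an adjusted p of 0.29 (log2 fold change -0.21, 95% interval -0.47 to 0.04). The membrane anchors Sdhc and Sdhd had log2 fold changes of -0.18 each, with overlapping groups. Without control 1 the log2 fold changes were -0.08 for Sdhb, -0.08 for Sdhc and -0.09 for Sdhd. Per kilobase of annotated exon, Sdhd was the highest of the 4 at 134 CPM, followed by Sdha at 67.7, Sdhb at 62.3 and Sdhc at 39.1 CPM. The order of Sdha and Sdhb depends on the length used. Sdha has 4126 exon bases but a transcript of 2900 bases, and Sdhb has 2239 and 1142.

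Complex III, which passes electrons from ubiquinol to cytochrome c, had 8 nuclear-encoded subunits that the symbols took in. Their median log2 fold change was -0.10 (0.02 without control 1). Uqcrc1, a core protein on the matrix side, had 211, 220.3, 212 and 200.3 CPM in induced libraries, against 264, 196, 194 and 201 CPM in controls. Control 1 was high and the other 7 libraries were close together, with a log2 fold change of -0.01 (0.10 without control 1). Its partner Uqcrc2 had 198, 205, 193 and 185 CPM in induced libraries, against 241, 242, 208 and 201 CPM in controls, where controls 1 and 2 were both high. Its log2 fold change was -0.19 (95% interval -0.36 to -0.01, limma adjusted p = 0.19).

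Complex IV, cytochrome c oxidase, had 13 nuclear-encoded subunits, Ndufa4 among them, with a median log2 fold change of -0.05 (0.05 without control 1). Cox4i1, a subunit needed for assembly, had 240.3, 253, 249.8 and 233 CPM in induced libraries, against 315, 256, 219 and 231 CPM in controls. The groups overlapped, with a log2 fold change of -0.05 (95% interval -0.28 to 0.18, and 0.05 without control 1). Cox5a, a matrix-side subunit singled out after its values were seen, had 50.1, 47.3, 44.8 and 37.2 CPM in induced libraries, against 74.7, 34.0, 40.6 and 37.2 CPM in controls. Control 1 lay above the mean of the other 3 controls by 1.007 on the log2 scale, and the log2 fold change was 0.01 with all libraries, -0.02 under median-of-ratios scaling and 0.26 without control 1. Cox7a2l, which holds complexes III and IV together in supercomplexes and is not a core part of either, had 173, 186, 163 and 163 CPM in induced libraries, against 221, 197, 176 and 171 CPM in controls. Its groups overlapped (log2 fold change -0.15, 95% interval -0.35 to 0.04, and -0.08 without control 1).

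Several complex IV subunits have isoforms of other tissues, and the common isoform was the main one in these cultures. Per kilobase of exon over all libraries, Cox6b1 stood at 181 CPM and its testis isoform Cox6b2 at 33.7 CPM, and Cox7a2 stood at 139 CPM and its heart and muscle isoform Cox7a1 at 8.64 CPM. Cox6b2 was nonetheless expressed in every library, at 38.0, 39.1, 30.3 and 36.7 CPM in induced libraries, against 49.0, 33.4, 35.8 and 36.3 CPM in controls. The groups overlapped, with a log2 fold change of -0.09 (95% interval -0.37 to 0.19, and 0.03 without control 1). Cox7a1 had 5.66, 5.66, 4.56 and 3.41 CPM in induced libraries, against 5.66, 4.36, 4.42 and 3.26 CPM in controls, also overlapping. Ndufa4 stood at 91.8 CPM per kilobase and its paralogue Ndufa4l2, known to be induced by hypoxia, at 8.87 CPM. Ndufa4l2 had 8.27, 8.82, 6.66 and 9.98 CPM in induced libraries, against 13.3, 9.32, 10.8 and 10.6 CPM in controls. Induced library 4 overlapped the controls, and the log2 fold change was -0.38 (95% interval -0.73 to -0.04, limma adjusted p = 0.16). The tissue isoforms Cox4i2, Cox6a2, Cox8b and Cox8c were not analysed here.

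Complex V, the ATP synthase, had 15 nuclear-encoded subunits, all with a log2 fold change below 0 and a median of -0.18 (-0.05 with 11 of 15 below 0 without control 1). Atp5b, the catalytic beta subunit of the F1 head, was the most abundant of the 88 by CPM, at 1309, 1400.2, 1340.4 and 1290 CPM in induced libraries, against 1592, 1404, 1289 and 1331 CPM in controls. Outside control 1 all libraries lay between 1289 and 1404 CPM, and the log2 fold change was -0.07 (95% interval -0.25 to 0.11, and -0.0065 without control 1). Its partner in the head, the alpha subunit Atp5a1, had 1084, 1184, 1118 and 1090.3 CPM in induced libraries, against 1279, 1207, 1078 and 1123 CPM in controls. The groups overlapped, with a log2 fold change of -0.06 (95% interval -0.23 to 0.10, and -0.02 without control 1). Per kilobase of annotated exon, Atp5a1 (365 CPM) and Atp5b (323 CPM) were followed by Cox8a of complex IV (219 CPM). The median over the 88 genes was 45.4 CPM. This length joins all annotated exons of a gene, and the order depends on it. Atp5b has 4237 exon bases but a transcript of 1916 bases, and Atp5a1 has 3135 and 2674.

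Atp5g1, Atp5g2 and Atp5g3 encode the same mature c subunit of the proton-driven ring, with different import sequences. Atp5g3 had 208, 212, 219 and 204 CPM in induced libraries, against 263, 198, 191 and 204 CPM in controls. Atp5g2 had 126, 132, 128 and 124 CPM in induced libraries, against 181, 147, 130.1 and 135 CPM in controls. Atp5g1 had 92.8, 97.6, 94.8 and 84.5 CPM in induced libraries, against 125, 86.5, 78.9 and 85.6 CPM in controls. The groups overlapped for all 3, with log2 fold changes of -0.01 for Atp5g3, -0.20 for Atp5g2 and -0.0026 for Atp5g1. Atp5g2 had a 95% interval of -0.42 to 0.01 and an adjusted p of 0.23 by limma. Without control 1 the log2 fold changes were 0.10 for Atp5g3, -0.10 for Atp5g2 and 0.14 for Atp5g1. Whether the 3 genes differed in their change was not tested.

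**Figure D3:**
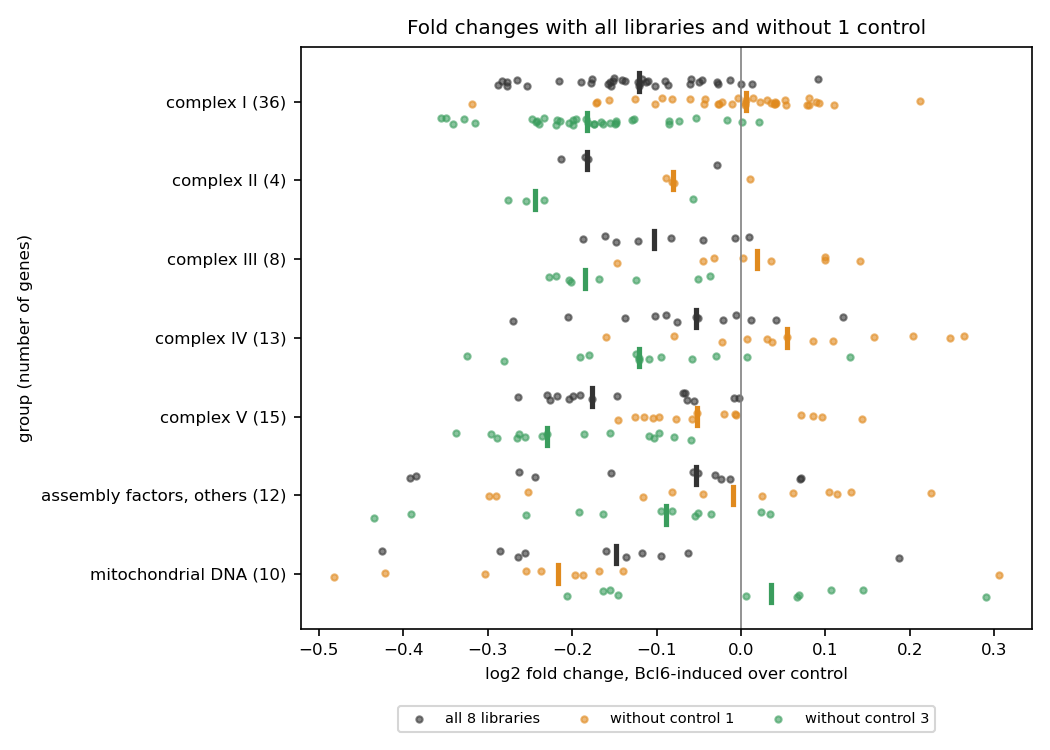
Log2 fold change of each gene, Bcl6-induced over control, by complex, with 1 point per gene and a bar at the median, for all 8 libraries, without control 1 and without control 3. Without control 1 the medians of complexes I, III and IV lie at or above 0, and without control 3 the median of the mitochondrially encoded genes moves to 0.04.

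The mitochondrially encoded genes fell into 2 sets by level. From mt-Nd6 up to mt-Co1, 7 of them lay between 147 and 4363 CPM in every library, while mt-Co2, mt-Co3 and mt-Atp6 lay between 0.751 and 3.51 CPM, with 8 to 36 reads a library. Per kilobase, mt-Co1 stood at 1920 CPM and mt-Co2 at 2.98 CPM, although both encode core subunits of complex IV. The 3 low genes are those with near-complete copies in the nuclear genome. Of all 50-base windows of their transcripts, 100% in mt-Co2, 99.9% in mt-Co3 and 99.5% in mt-Atp6 also occur, letter for letter, in a transcript of another gene, as against 62.2% in mt-Nd4, 51.1% in mt-Co1, 8.19% in mt-Nd2, 7.61% in mt-Nd5 and 0% in mt-Cytb, mt-Nd1 and mt-Nd6.

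The copies sit side by side on chromosome 1 as unprocessed pseudogenes: Gm28661 (chr1:24614885-24615565, minus strand) matches mt-Co2 (chrM:7013-7696, plus strand) in 681 of 681 bases compared, Gm10925 matches mt-Atp6 in 678 of 678, and Gm28437 matches mt-Co3 in 783 of 783. In mt-Co1 (chrM:5328-6872, plus strand) the near copy Gm13340 (chr2:22588103-22589647, minus strand) matches in 1508 of 1545 bases (97.6%). The first 120 bases of these pairs are shown, from the GENCODE M21 transcripts of GRCm38, because they are the sequences that a short read must tell apart; capitals mark the bases at which the 2 genes of a pair differ.
mt-Co2: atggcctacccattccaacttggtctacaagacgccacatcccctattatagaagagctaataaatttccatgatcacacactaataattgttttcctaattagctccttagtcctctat
Gm28661: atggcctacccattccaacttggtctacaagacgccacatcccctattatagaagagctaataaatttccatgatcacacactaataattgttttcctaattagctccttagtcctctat
mt-Co1: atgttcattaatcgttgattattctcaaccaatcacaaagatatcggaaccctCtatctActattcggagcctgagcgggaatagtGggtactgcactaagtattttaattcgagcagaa
Gm13340: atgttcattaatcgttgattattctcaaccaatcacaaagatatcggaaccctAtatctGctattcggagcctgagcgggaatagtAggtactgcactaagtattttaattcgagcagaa

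The pair of mt-Co2 holds no differing base and the pair of mt-Co1 holds 3 in this stretch. The nuclear copies were as low as the 3 genes: Gm28661 had 1.40, 1.75, 1.80 and 1.85 CPM in induced libraries, against 2.91, 1.202, 3.11 and 1.80 CPM in controls. How reads that match 2 places were counted is not given in the sources used here, and the part of the copies in the low values was not tested. The levels of mt-Co2, mt-Co3 and mt-Atp6 are therefore given as uncertain, and mt-Nd4 and mt-Co1 may lack part of their reads or hold reads of their copies.

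**Figure D4:**
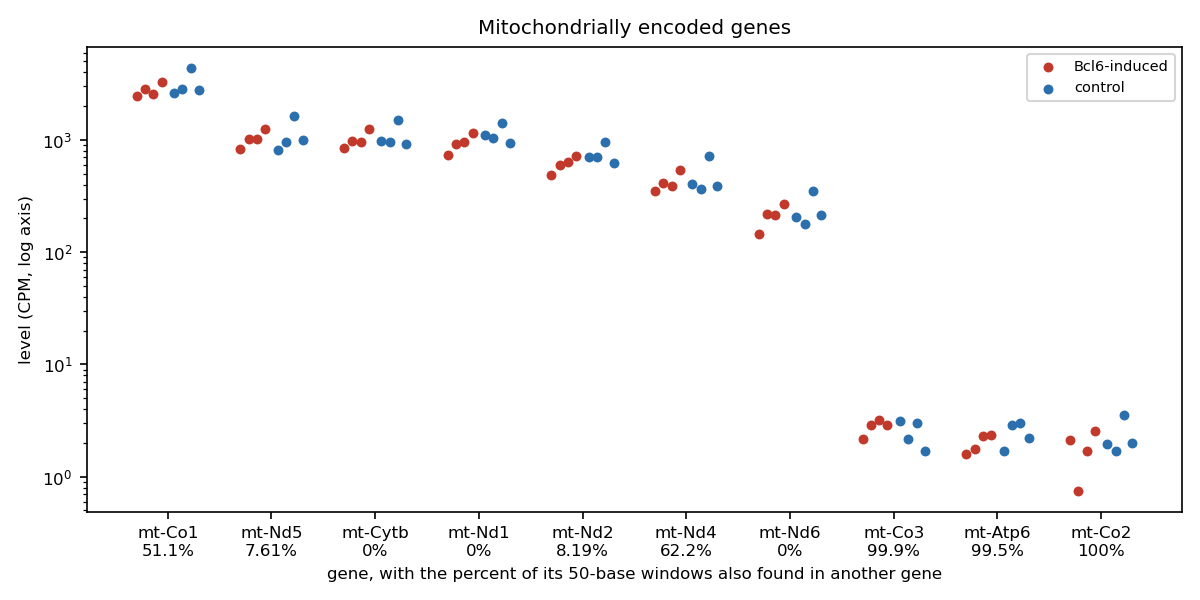
Level in CPM (log axis) of the 10 mitochondrially encoded genes, with 4 induced libraries (red, left) and 4 controls (blue, right) per gene in library order, and under each name the percent of its 50-base windows found in another gene. The 3 genes at 99.5% or more lie between 0.751 and 3.51 CPM, and the third control is the highest point of 9 genes.

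Induced and control libraries overlapped in all 10 mitochondrially encoded genes. mt-Co1, the catalytic subunit of complex IV and the most abundant of the 98 by CPM, had 2464, 2831, 2556 and 3264 CPM in induced libraries, against 2634, 2858, 4363 and 2766 CPM in controls. mt-Cytb, the cytochrome b of complex III, had 853, 980.1, 964 and 1259 CPM in induced libraries, against 975, 968, 1506 and 929 CPM in controls. Control 3 was the highest in both, and induced library 4 came after it. The log2 fold changes were -0.16 for mt-Co1 (95% interval -0.50 to 0.18) and -0.09 for mt-Cytb (95% interval -0.45 to 0.26), and without control 3 they were 0.0056 and 0.07.

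Of the complex I genes of mitochondrial DNA, mt-Nd1 had 738, 927, 962 and 1153 CPM in induced libraries, against 1117, 1045, 1404 and 941 CPM in controls. mt-Nd2 had 489.5, 602, 630.2 and 723 CPM in induced libraries, against 710.2, 701, 951 and 625 CPM in controls. In this pair, which encodes parts of the membrane arm, induced library 1 was the lowest of the 8 libraries and control 3 the highest. Their log2 fold changes were -0.26 (95% interval -0.57 to 0.06, limma adjusted p = 0.31) and -0.28 (95% interval -0.59 to 0.02, limma adjusted p = 0.24), and without control 3 they were -0.15 and -0.16. mt-Nd4 had 349.8, 411, 389 and 541 CPM in induced libraries, against 407, 368, 721 and 388 CPM in controls. mt-Nd5 had 833, 1027, 1010.3 and 1247 CPM in induced libraries, against 806, 965, 1639 and 1006 CPM in controls. In both, control 3 was the highest library and the groups overlapped. mt-Nd6, which lies on the other strand of mitochondrial DNA, had 147, 219, 213 and 271 CPM in induced libraries, against 205, 177, 348 and 214 CPM in controls. It too was highest in control 3, next in induced library 4 and lowest in induced library 1. mt-Nd5 and mt-Nd6 share 14 bases at their ends, on opposite strands, and whether counting used strand is not stated.

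The 5 mitochondrially encoded genes with under 10% of shared windows summed to 3060.5, 3753, 3779 and 4652 CPM in induced libraries, against 3813, 3856, 5848 and 3715 CPM in controls, so control 3 stood apart without the genes that have close copies. The ribosomal RNAs mt-Rnr1 and mt-Rnr2, which are no members, summed to 305, 336, 343 and 397 CPM in induced libraries, against 403, 391.7, 553 and 349 CPM in controls. Control 3 was the highest in this sum and in mt-Rnr2. In mt-Rnr1 control 1 was the highest, at 134 CPM, beside 129 CPM in control 3.

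The lift of control 1 in the nuclear-encoded genes went with annotated exon length, which joins all exons of a gene and can exceed its transcript. The relation to transcript length itself was not tested. These genes are short: the median annotated exon length was 1737 bases, beside 4319 bases over all genes, and 87.7% of genes were longer than that median. Control 1 lay above the mean of the other controls by a median of 0.49 (log2) over the 88 genes, beside 0.04 over all genes. It lay above by 0.55 in the 22 shortest (up to 1032 bases) and by 0.36 in the 22 longest (at least 3020 bases). Spearman's rho between this difference and length was -0.41 across the 88 genes and -0.58 across 14924 genes, as descriptions, since genes of 1 library are not independent replicates. With the trend of each library on exon length and GC content taken off, the median deviation of the 88 genes from the control mean was 0.19 in control 1, against 0.37 before. In that fit the median log2 fold change of the 88 genes was -0.10, and 2 of them were called lower, beside 10.3% of all genes called in either direction. These were Ndufv3 (limma adjusted p = 0.039, log2 fold change -0.32) and Atp5g2 (limma adjusted p = 0.041, log2 fold change -0.29). In the 10 mitochondrially encoded genes, with a median length of 998 bases, the median difference of control 1 from the other controls was -0.20. What set control 1 apart was not tested.

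**Figure D5:**
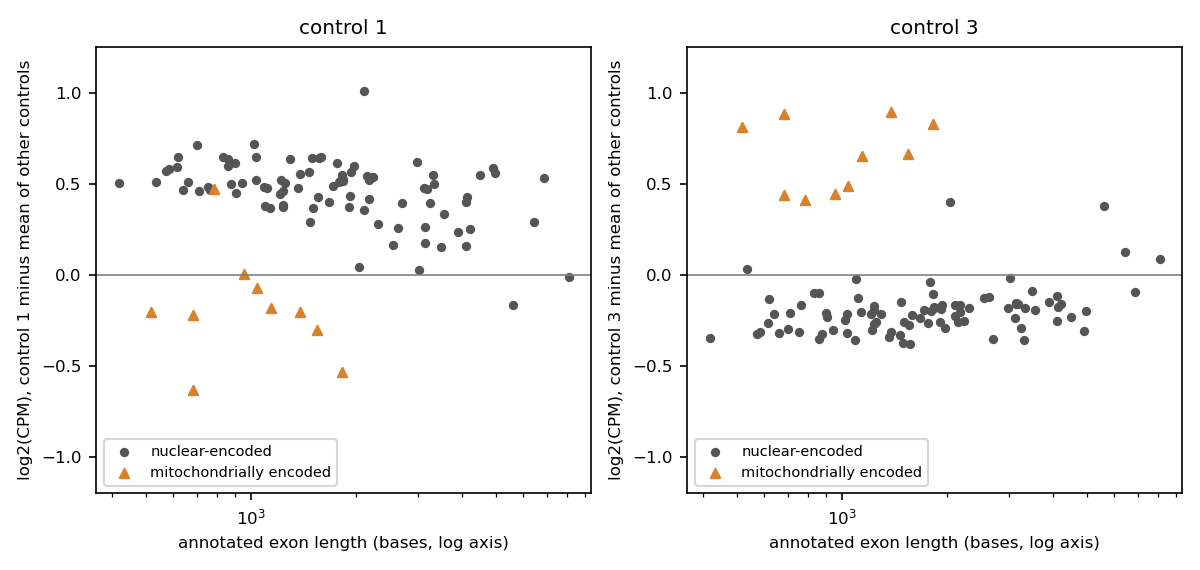
For each gene, log2 CPM in control 1 (left panel) or control 3 (right panel) minus the mean of the other 3 controls, against annotated exon length in bases (log axis), with nuclear-encoded genes as circles and mitochondrially encoded genes as triangles. The circles lie mostly above 0 in the left panel and below 0 in the right panel, and the triangles the other way round.

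Close copies and overlaps also touch some nuclear-encoded members. No 50-base window was shared with another gene in 42 of the 88, and 4 shared at least 40% of them: Atp5l (84.8%), Atp5o (50.3%), Atp5h (47.9%) and Uqcrb (43.4%), whose values are therefore uncertain. Exons of another gene on the same strand overlap 5 of the 88, the most in Ndufb9 (19.5% of its exon bases), and on either strand 31 of the 88.

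The nuclear-encoded genes are known targets of the transcription factors NRF1, YY1 and the ETS family member GABP, so the letters of their usual motifs were counted in the promoters, taken from 250 bases before to 50 after each start (RefSeq, GRCm38.p6). A promoter was found for 75 of the 88 genes. The NRF1 core CGCATGCG occurred in 11 of the 75 (14.7%), beside 4.16% of the genes in the table with a promoter and 1.87% of all 32851 promoters. The YY1 motif AAGATGGC occurred in 12 (16%), beside 4.97% and 2.75%. The ETS motif CCGGAAG occurred in 18 (24%), beside 18.8% and 8.86%. Both strands were searched, and none of the 3 motifs contains another. The promoter of Cox6a1 (chr5:115348909-115349208, minus strand) is shown as one that holds the letters of NRF1 and, on the opposite strand, of ETS, both in capitals.
Cox6a1: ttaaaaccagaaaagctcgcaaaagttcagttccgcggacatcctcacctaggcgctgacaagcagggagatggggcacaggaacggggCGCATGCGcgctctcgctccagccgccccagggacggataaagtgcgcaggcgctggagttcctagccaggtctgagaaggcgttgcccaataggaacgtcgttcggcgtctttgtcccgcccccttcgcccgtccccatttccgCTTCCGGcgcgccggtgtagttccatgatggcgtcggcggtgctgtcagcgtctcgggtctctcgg

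The 11 genes with the NRF1 letters were Uqcrc1, Uqcr11, Atp5g2, Atp5j, Atp5k, Atp5l, Cox6a1, Ndufa8, Ndufa11, Ndufaf4 and Ndufaf5, from 4 different complexes or their assembly. None of them was called in the main fit, beside 6.81% of all genes. With the trend on length and GC taken off, Atp5g2 was called lower, beside 10.3% of all genes called in either direction. Cox6a1 had 124, 125, 115 and 114 CPM in induced libraries, against 175, 108, 104 and 109 CPM in controls, so that control 1 was high and the other 3 controls lay below the induced libraries. A match is only a run of letters, and binding was not measured.

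Genes around the chain were read in lists written from general knowledge. No gene was called among 36 further assembly factors, 17 electron carriers and ubiquinone synthesis genes, 19 genes for the upkeep and transcription of mitochondrial DNA, 9 regulators of mitochondrial gene programmes, 13 citric acid cycle genes and 78 mitochondrial ribosomal proteins. At limma's unadjusted p under 0.05 these lists held 1, 2, 2, 2, 1 and 5 genes (2.78%, 11.8%, 10.5%, 22.2%, 7.69% and 6.41%), beside 23.7% of all genes. Without control 1, 2 of the 78 mitochondrial ribosomal proteins were called higher, beside 1146 of all 14954 genes. Without control 3, 1 of the 9 regulators was called higher, beside 591 of all genes. The median log2 fold changes were -0.03, -0.11, -0.09, 0.05, -0.08 and -0.07 in the same order. Control 1 was the highest library for 74 of the 78 mitochondrial ribosomal proteins and for 85 of the 99 genes that the cytosolic ribosomal pattern took. Of these 99, Rpl39l, a ribosomal protein paralogue, and Rps6ka2, a kinase that the pattern takes and that is no ribosomal protein, rose (limma adjusted p = 0.038 and 0.020), and the median of the 99 was -0.21 (-0.12 without control 1). At an unadjusted p under 0.05 lay 47 of the 99 (47.5%, beside 23.7% of all genes), 42 of them lower in induced cultures. With the trend on length and GC taken off, 10 of the 99 were called lower and 3 higher. That fit called 732 of 14924 genes lower and 799 higher, 10.3% in either direction. Over the alternative fits the highest adjusted p was 0.13 for Rpl39l and 0.076 for Rps6ka2.

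Glycolysis, the other main route to ATP, held called genes: 8 of 21 fell and none rose, beside 2.26% of all genes called lower, and the median log2 fold change was -0.25 (-0.22 without control 1). The 8 were Slc2a1, Gpi1, Pfkl, Aldoc, Tpi1, Pgk1, Pgam1 and Ldha, from glucose uptake to lactate. Phosphoglycerate kinase Pgk1, taken as an example after its values were seen, had 834, 912, 929 and 909 CPM in induced libraries, against 1315, 1275, 1205 and 1213 CPM in controls. The groups were well apart, with a log2 fold change of -0.48 ± 0.07 (SE, limma adjusted p = 0.0034). Whether glycolysis and oxidative phosphorylation genes differed in their response was not tested. The count depended on the libraries and the fit: it was 3 without induced library 1, 4 without induced library 2, 4 without control 2 and 4 with the replicate block. With the trend on length and GC taken off, 13 of the 21 were called lower. Over the whole table that fit called 732 of 14924 genes lower, beside 338 of 14954 in the main fit. Pgk1, Pfkl and Slc2a1 had an adjusted p of at most 0.049 in every alternative fit.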

How the data were processed

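Poly(A) RNA of 4 Bcl6-induced and 4 control cultures was sequenced from TruSeq stranded libraries, per the labels' protocols. The genome build mm10 and the tools edgeR 3.20.1, HTSeq 0.9.1 and STAR 2.5.3a are named as the authors' in the submitters' processing notes. They deposited 1 table of 14954 genes whose decimal commas had broken into extra columns; its lines were rejoined. The deposited values are a score: whole numbers that sum to 19.93 to 19.96 M (1e6) in every library. They were read as reads scaled to a common total and rounded up, since at least 99.6% of values in each library fall on multiples of 1 step, and dividing by that step gave the read totals (9.42 to 15.02 M), which set the counting precision. The authors' own statistics columns stayed broken and were left out. The other columns deposited as CPM served only to rejoin the lines; CPM here is each value's share of the total of its library, times 1e6.

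limma 3.58.1 in R 4.3.3 was fitted on log2(value + 1) over all genes, without covariates or a filter, since no gene had a mean under 15.1. This pseudocount understates the fold change of low genes. P-values were adjusted by Benjamini-Hochberg over 14954 genes. The design had allowed for raw counts and a count model; the values were not raw counts, so limma was used. The fit was tested on simulated data. Exon lengths, overlaps and shared 50-base windows came from GENCODE M21 (GRCm38). Exon length joins all annotated exons of a gene and can exceed its transcript, so values per kilobase of exon depend on the annotation. The genes named were Bcl6, all mitochondrially encoded members, called members, the most abundant 2 of each complex (all 4 of complex II), the tissue isoforms with their partners, and called members of lists with 5 or fewer calls; others are said to be singled out. One gene that this rule takes is not reported here. Members and lists were chosen with earlier results of these data known. Alternatives were other pseudocounts, scalings, a minimum mean of 100, a correction for length and GC, array weights, thinned reads, a replicate block, and leaving out libraries.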

Additional observations from a re-analysis of the deposited data

Results flagged for a closer look

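Samples that lay far from the other 3 of their group were looked for with Dixon's ratio, the gap to the nearest other sample divided by the whole range of the group, above its 95% critical value; chance flags about 1 in 20 groups. Control 3 was such a sample for mt-Co1 at 4363 CPM, mt-Cytb at 1506 CPM, mt-Nd4 at 721 CPM and mt-Co2 at 3.51 CPM. It was also one for the sum of the 10 mitochondrially encoded genes at 10942 CPM, for the sum of the 5 with under 10% of shared windows at 5848 CPM, and for their mean log2 deviation from the control mean at 0.49. Control 1 was such a sample for Uqcrc1 at 264 CPM and Atp5g1 at 125 CPM. For the sum of the 88 nuclear-encoded genes, control 1 stayed under the critical value. Induced library 4 was the low one of its group for Sdhb at 124 CPM. Over all 88 nuclear-encoded genes, control 1 stood out in this way in 20 (22.7%), beside 4.60% of all genes, and no other control did in any of the 88. Control 3 stood out in 4 of the 10 mitochondrially encoded genes beside 1.60% of all genes.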

How the results depend on the processing

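No mitochondrially encoded member was called under any alternative run, and nuclear-encoded members were called only with the trend on length and GC taken off, where 2 were. Over the fits that left out 1 library, the median log2 fold change ran from -0.17 to 0.0050 for nuclear-encoded members. For mitochondrially encoded members it ran from -0.25 to 0.04 over the same fits. The planned count model on recovered reads was not run, since the values did not give whole reads for nearly all genes by the test required. The 1019 called genes became 1531 (732 lower) with the trend off, 2507 (1643 higher, 864 lower) with array weights and 517 lower with the replicate block without pair 1. Leaving out 1 library gave 308 to 1697 called genes, 211 to 1146 higher and 93 to 551 lower. The 10 calls in the comparison lists became 28 with the trend off, 24 with array weights, 6 with the replicate block and 3 to 14 without 1 library; the 3 called named genes became 1 to 3 without 1 library.

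Same-numbered libraries deviated together with correlations of 0.03, 0.01, -0.03 and 0.37, so the numbers were not taken as pairs; of the 4 induced libraries, numbers 1 and 4 correlated best with the control of their own number, and 2 and 3 did not. The replicate block gave 827 calls and called no member.

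The following uncalled genes changed sign, as log2 fold changes, and the cause was not tested. With the trend off, mt-Cytb was 0.0123, mt-Nd5 0.0109 and mt-Nd6 0.0141. With array weights, Ndufs1 was 0.0175, Sdha 0.000384, Uqcrc1 0.0808, Cox4i1 0.0263, Cox6b2 0.0278, Ndufa4 0.00875, Atp5g1 0.114 and Atp5g3 0.0610. With the replicate block without pair 1, Sdha was 0.0149, Uqcrc1 0.0978, Cox4i1 0.0618, Atp5b 0.00250, Cox6b2 0.00218, Ndufa4 0.0327, Atp5g1 0.141 and Atp5g3 0.102. Without controls 1 and 3, an alternative chosen after seeing the data, mt-Cytb was 0.0820, mt-Nd4 0.143, mt-Nd5 0.0473, mt-Nd6 0.0914, Ndufs1 0.0270, Uqcrc1 0.0864, Cox4i1 0.00383, Cox6b2 0.0427, Atp5g1 0.101 and Atp5g3 0.0703. Cox5a was -0.0220 under median-of-ratios and -0.0401 under upper quartile scaling. Without 1 library the ranges were -0.240 to 0.00563 for mt-Co1, -0.203 to 0.0685 for mt-Cytb, -0.242 to 0.107 for mt-Nd4, -0.197 to 0.144 for mt-Nd5, -0.265 to 0.0658 for mt-Nd6, -0.0368 to 0.0209 for Ndufs1, -0.0570 to 0.0111 for Sdha, -0.0514 to 0.0992 for Uqcrc1, -0.121 to 0.0547 for Cox4i1, -0.153 to 0.0303 for Cox6b2, -0.0149 to 0.277 for Cox7a1, -0.180 to 0.0366 for Ndufa4, -0.0797 to 0.143 for Atp5g1, -0.0595 to 0.0959 for Atp5g3 and -0.115 to 0.264 for Cox5a.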
